A study of Homo sapiens with 6 samples.

Results

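The human nuclear receptor genes were compared between undifferentiated H9 cells and mesodermal progenitors made from them. The members were 46 receptor symbols, and a receptor was measured when the array held a probe set annotated to that symbol and to no other. This gave 39 receptors with 127 probe sets, of 19775 genes with 41091 such probe sets in all. NR1D1, NR1H2, NR1H4, NR1I2, NR2F2, HNF4A and NR0B1 are not analysed here.

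The measurements came from 6 one-colour oligonucleotide arrays. Undifferentiated H9 cells were on 3 arrays, with no treatment or sort of their own in the labels; H9 is a widely used human embryonic stem cell (hESC) line. The other 3 arrays held progenitors that had been induced towards mesoderm in Stemline II medium, to which VEGF, FGF2, BMP4 and activin A had been added, and taken at day 3.5 by flow cytometry as CD326neg CD56+ cells, that is, lacking the epithelial antigen EPCAM and carrying the neural cell adhesion molecule NCAM1. Both groups came from the same line, so that other lines are not represented. The labels repeat the induction protocol on every sample and are silent on whether the arrays of 1 group stand for separate cultures. The p-values thus cover only the scatter among these arrays, and that scatter may be technical.

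Nuclear receptors are transcription factors with a pocket for small lipophilic ligands such as steroids, retinoids, thyroid hormone, vitamin D and fatty acids. Most bind DNA as pairs at short hexamers related to AGGTCA, and many do so with a retinoid X receptor as partner. Without ligand several of them hold corepressors on their targets, and ligand exchanges these for coactivators. In the gastrulating embryo, retinoic acid made in mesoderm patterns the body axis through the retinoic acid receptors, while NR5A2 and NR6A1 are known as an activator and a repressor of the pluripotency factor OCT4. Receptors without a known natural ligand are called orphans.

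Levels are given below as the deposited intensity of a gene's brightest probe set on each array. A change is the progenitor mean minus the hESC mean of log2(intensity + 16) after quantile normalization, which understates the change of dim genes, and SD and SE are on this log2 scale. Where intensities are set against each other, the progenitors come first. The highest intensity of the array's bacterial control probe sets, which no human RNA should match, was 39.6, on hESC array 1. It was 32.25 and 31.95 on hESC arrays 2 and 3, and 26.15 to 29.44 on the progenitor arrays. The 39.6 is the limit used below for every array and is meant by the bacterial controls, which is strict for the progenitors. A group below it is taken as not measured above background, and the size of a change against such a group is uncertain. In 12 of the 39 receptors both group means were below it, and in 7 only 1 was. These 7 were RARB, PPARA and NR2F1 in hESC and THRB, RORB, ESR2 and NR0B2 in the progenitors, of which 6 were called and NR0B2 was not. Against each array's own highest control, NR0B2 was above it on every progenitor array. THRB and ESR2 were above it on progenitor array 2, and PPARA on hESC array 3. A gene was called at an adjusted p under 0.05 in a two-sided limma test with Benjamini-Hochberg adjustment over all 19775 genes, with 3 arrays per group. Of these genes 47.9% were called, and the median change of all genes was 0.04. Median intensities of single arrays ran from 30.98 to 31.24 for the progenitors and from 33.1 to 36.1 for hESC. All 5 measured pluripotency markers fell in the progenitors and all 6 mesoderm markers rose, which checks the labels of both groups. In these bulk samples, fewer cells with a transcript and less of it per cell cannot be told apart.

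Of the 39 receptors, 20 (51.3%) were called, beside 47.9% of all genes. In the progenitors 12 rose (30.8%, beside 26.7% of all genes) and 8 fell (20.5%, beside 21.2%). A change of at least 2-fold was called for 7 receptors (17.9%, beside 16.6%), of which RARB, PPARA, NR2F1, ESRRG and NR1D2 rose and RORB and ESR2 fell. On the normalized scale the 3 progenitor arrays lay all above or all below the 3 hESC arrays in 23 receptors (59.0%, beside 57.3%). RXRG, PPARD and NR2F6 were separated in this way without being called, and the deposited intensities of RXRG, NR2F6 and NR1I3 overlapped. The median change of the 39 receptors was 0.14. These shares were close to those of all genes.

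**Figure D1:**
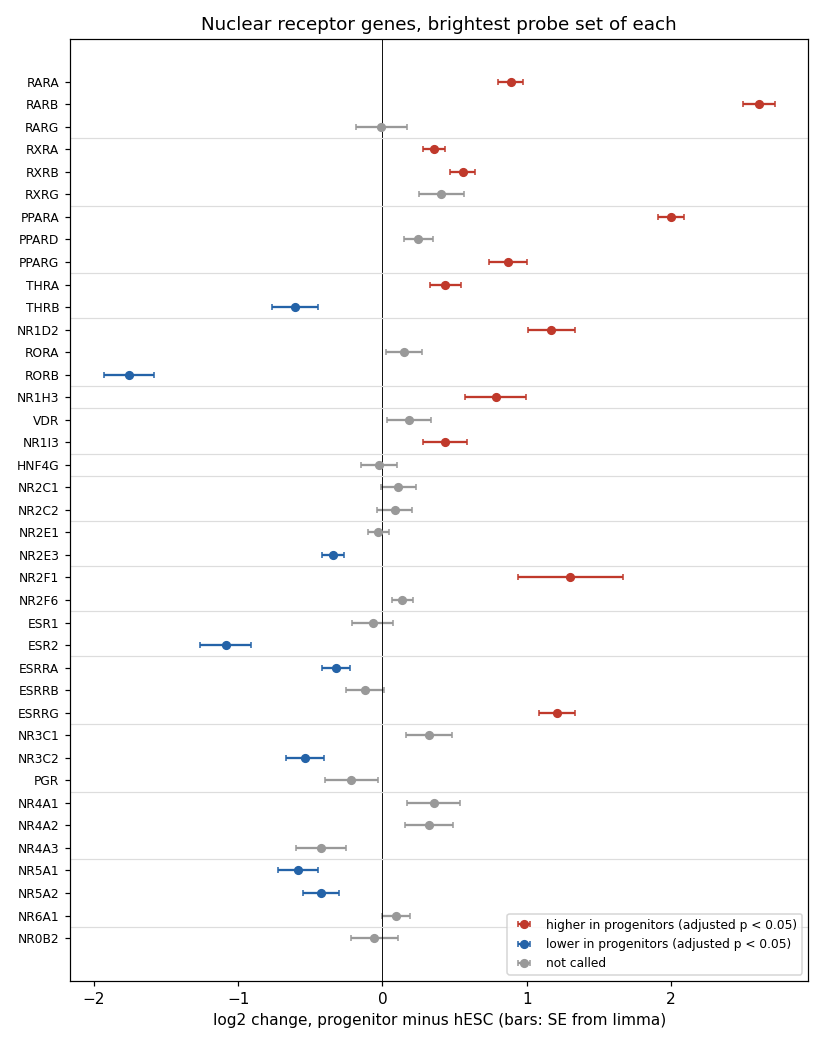
Log2 change of the 39 receptors (progenitor minus hESC, brightest probe set, horizontal axis), ordered by family, with bars for the SE from limma and colour for the call. RARB and PPARA lie farthest to the right, at 2.61 and 2.00, and RORB farthest to the left, at -1.76.

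Among the retinoic acid receptors, RARA and RARB rose in the progenitors and RARG was not called. RARB, which is itself a known target of retinoic acid, had intensities of 162, 151 and 163 on the progenitor arrays and of 8.74, 15.2 and 15.2 on the hESC arrays. The progenitor arrays were all high and the groups did not overlap. The log2 level was 4.82 ± 0.19 (SD, n = 3) in hESC and reached 7.43 ± 0.05 in the progenitors, a log2 change of 2.61 (SE 0.11) with an adjusted p of 2.21e-06 by limma. The hESC arrays were all below the bacterial controls, so that the size of this change is uncertain. RARA, the most broadly expressed receptor of this family, had intensities of 151, 141 and 158 in the progenitors and of 78.9, 72.2 and 73.1 in hESC. The groups did not overlap, and RARA rose by 0.89 (SE 0.09, limma adjusted p = 0.000127), from a log2 level of 6.47 ± 0.07 to 7.36 ± 0.08. All 3 RARA probe sets that rose carry the array's mark for sequences that may match several transcripts. Without such probe sets RARA was at -0.35 (adjusted p = 0.196). That value came from a probe set below the bacterial controls on every array, at 9.03 to 23.9 against 19.9 to 29.0 in hESC. A further marked RARA probe set, at 58.5 to 72.5 against 61.0 to 97.2 in hESC, changed by -0.22 and was not called. RARG had intensities of 121 to 170 in the progenitors and of 124 to 184 in hESC, and its change was -0.01 (SE 0.18).

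The promoter of RARB is shown because the textbook retinoic acid response element is a direct repeat of the hexamer with a spacing of 5 bases. In the RefSeq windows of 250 bases before to 50 bases after each start (GRCh38.p14), the hexamer, taken as AGGTCA or GGGTCA or AGTTCA or GGTTCA, was searched on both strands in direct repeats with 1 to 5 bases between them. This search, the stretches shown and the other motifs given here were chosen after the values of the members had been seen. A repeat with a spacing of 5 was found in 31 of 35116 windows (0.0883%), which belong to 29 genes. Of the 86 windows of 34 receptors, 1 held it, a window of RARB, where it ran from 53 to 37 bases before the start. CYP26A1, the enzyme that breaks down retinoic acid, held it on the opposite strand, from 90 to 74 bases before the start. The RARB stretch lies at chr3:25428180-25428256 and the CYP26A1 stretch at chr10:93073773-93073849, both on the plus strand, and capitals mark the repeat's hexamers and no others.
RARB: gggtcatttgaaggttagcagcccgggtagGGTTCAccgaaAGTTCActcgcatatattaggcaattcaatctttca
CYP26A1: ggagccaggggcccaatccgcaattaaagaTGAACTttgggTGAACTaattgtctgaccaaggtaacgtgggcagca

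CYP26A1 rose in the progenitors too, by 1.01 (SE 0.15, limma adjusted p = 0.00122), with intensities of 773, 1103 and 1105 against 482, 480 and 502. Of the 15 measured genes with this repeat, 4 rose (26.7%, the same share as of all genes), 1 fell and 10 were not called, with a median change of 0.14. The called share of 33.3% was below the 47.9% of all genes. No receptor window held a repeat with a spacing of 1, 2, 3 or 4, beside 46, 14, 26 and 30 of all windows. The single hexamer AGGTCA was in 14 of the 86 receptor windows (16.3%), beside 13.8% of all windows. Such matches describe letters in these windows and say nothing on binding.

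The retinoid X receptors are the common partners of the RARs, PPARs, thyroid hormone receptors and LXRs. RXRA and RXRB rose, and RXRG was not called. RXRB had intensities of 297, 289 and 303 in the progenitors and of 186, 183 and 201 in hESC. These groups were well apart, and RXRB rose by 0.56 (SE 0.08, limma adjusted p = 0.00122), from 7.71 ± 0.09 to 8.26 ± 0.04. RXRA rose by 0.36 (SE 0.08, adjusted p = 0.00591), with intensities of 377 to 410 against 291 to 298, and its dimmer probe set rose by 1.54. RXRG was dim in both groups, at 17.6 to 25.5 against 7.5 to 17.9, and its change of 0.41 did not pass (adjusted p = 0.0691).

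All 3 PPARs, which sense fatty acids, were higher in sign, and PPARA and PPARG were called. PPARA, known for switching on fatty acid oxidation, had intensities of 188, 175 and 171 in the progenitors and of 37.2, 30.3 and 33.2 in hESC. Every progenitor array was far above every hESC array. The log2 level went from 5.58 ± 0.12 to 7.58 ± 0.04, a change of 2.00 (SE 0.09) with a limma adjusted p of 2.97e-06, and the hESC arrays, at 30.3 to 37.2, were just below the bacterial controls. PPARG, the regulator of fat cell formation, was near the low end of the table in hESC, at 1.29, 1.53 and 1.99, and at 15.8, 20.7 and 10.1 in the progenitors. It did not overlap between the groups and rose by 0.87 (SE 0.13, limma adjusted p = 0.00117), from 4.13 ± 0.03 to 5.0 ± 0.25. Both PPARG groups lay below the bacterial controls. PPARD, a broadly expressed member, was at 234 to 260 against 177 to 215 and had a change of 0.25 (adjusted p = 0.0726).

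Of the other lipid-sensing and xenobiotic receptors, NR1H3 and NR1I3 rose and VDR was not called. NR1H3 (LXR alpha), an oxysterol receptor, had intensities of 209, 274 and 292 in the progenitors and of 155, 103 and 167 in hESC. The lowest progenitor array was above the highest hESC array, and the change was 0.78 (SE 0.21, limma adjusted p = 0.0178), from 7.28 ± 0.38 to 8.06 ± 0.26. This call was lost without progenitor array 2 (0.73, adjusted p = 0.0552) or 3 (0.69, 0.0602). NR1I3 (CAR), a xenobiotic receptor, rose by 0.43 at an adjusted p of 0.0467, at 10.6 to 22.3 against 7.39 to 11.6 in hESC. Both NR1I3 groups lay below the bacterial controls, and in the limma fit over all probe sets NR1I3 was not called (adjusted p = 0.0526). The call was lost in 12 of 17 alternatives, among them leaving out progenitor array 2 or 3 or any hESC array (adjusted p = 0.0691 to 0.148). VDR, the vitamin D receptor, was at 47.9 to 60.6 against 36.9 to 61.2.

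The thyroid hormone receptors moved in opposite directions. THRB had intensities of 15.1, 28.9 and 25.2 in the progenitors and of 50.6, 53.7 and 37.6 in hESC. The progenitor arrays were all lower, and THRB fell by 0.61 (SE 0.16, limma adjusted p = 0.0155), from 5.92 ± 0.16 to 5.32 ± 0.28. The call was lost without hESC array 1 (-0.57, adjusted p = 0.0575) or 2 (-0.55, 0.0574), and the mean of the 3 THRB probe sets changed by -0.13 (adjusted p = 0.329). THRA rose by 0.44 (SE 0.11, adjusted p = 0.0127), with intensities of 49.1 to 66.9 against 39.1 to 44.2. The mean of the 4 THRA probe sets changed by 0.20 (adjusted p = 0.0763).

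In the REV-ERB and ROR group, whose members repress or activate the same clock genes, NR1D2 rose, RORB fell and RORA was not called. RORB, a receptor of retina and brain, had intensities of 5.72, 16.8 and 10.6 in the progenitors and of 78.2, 94.2 and 63.6 in hESC. All hESC arrays were high and all progenitor arrays low. RORB fell by 1.76 (SE 0.18, limma adjusted p = 0.00014), from 6.52 ± 0.20 to 4.77 ± 0.31. The progenitor arrays were all below the bacterial controls, so that the size of this change is uncertain too. NR1D2 (REV-ERB beta) had intensities of 398, 311 and 322 in the progenitors and of 136, 117 and 173 in hESC. The groups were apart, with a rise of 1.17 (SE 0.16, limma adjusted p = 0.000781) from 7.29 ± 0.30 to 8.46 ± 0.17, and the dimmer probe set rose by 1.19. RORA was at 80.3 to 94.7 against 64.2 to 94.9, with a change of 0.15 (adjusted p = 0.372).

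A window of NR1D2 is shown because clock genes are known for E-boxes, and it held CACGTG, the same on both strands, at 2 places, from 155 to 150 and from 105 to 100 bases before the start. At least 2 such places were found in 233 of all windows (0.664%) and, among the 86 receptor windows, in this 1. At least 1 CACGTG was in 7.26% of all windows and in 8 of the receptor windows (9.30%). The stretch lies at chr3:23945951-23946036 on the plus strand, and capitals mark the E-boxes.
NR1D2: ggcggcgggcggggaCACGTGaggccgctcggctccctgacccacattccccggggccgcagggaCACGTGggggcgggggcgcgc

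The orphan receptors of the COUP-TF, TLX and TR2 groups were mostly not called. NR2F1 (COUP-TF1), a regulator of mesenchyme and neural crest, had intensities of 82.7, 17.5 and 31.1 in the progenitors and of 5.63, 13.2 and 2.62 in hESC. Progenitor array 1 was far above arrays 2 and 3 and alone above the bacterial control limit, which is that of hESC array 1. Progenitor array 3, at 31.1, was above its own highest control of 29.44, and array 2 was below its own. The groups did not overlap. NR2F1 rose by 1.30 (SE 0.36, limma adjusted p = 0.021), from 4.48 ± 0.30 to 5.78 ± 0.77, the largest SE among the 39 receptors. The call was lost without hESC array 1 (1.27, adjusted p = 0.0678) or 3 (1.17, 0.0735), and without progenitor array 1 the change was 0.88 (adjusted p = 0.021).

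NR2F1 was the receptor most unequal between the progenitor arrays, and the markers of endothelium other than PECAM1 were unequal in the same way. PECAM1 was at 42.6 to 51.5 on the progenitor arrays and at 47.9 to 58.7 in hESC. The 8 endothelial markers summed to 5610 on progenitor array 1, 1610 and 1753 on arrays 2 and 3, and 735 to 834 in hESC. Of the 8, 4 rose (CDH5, SOX7, ERG and TEK), while ESAM, EGFL7, TIE1 and PECAM1 were not called. Their part in the NR2F1 result was not tested. Progenitor arrays 2 and 3 were the closest pair of arrays, with 7 genes more than 2-fold apart, none of them a receptor. Averaging them put NR2F1 at 1.51 (limma adjusted p = 0.0151). That average gives array 1 more weight, so it cannot show how far the NR2F1 result rests on array 1. The 7 measured endoderm markers gave sums of 520 to 668 on the progenitor arrays and of 462 to 528 on the hESC arrays, with 3 higher and 1 lower. SOX17 rose by 2.36, at 95.2 to 143 against 7.20 to 13.4 in hESC. CXCR4 rose by 1.80, at 129 to 169 against 26.0 to 40.0 in hESC. FOXA2, under the bacterial controls, rose by 0.50, and AFP, the brightest of the 7 in hESC, fell by 0.58. The 6 neuroectoderm markers gave 2635 to 2757 against 1941 to 2272, with NES alone called, and PAX6, SOX1, OTX1, ZIC1 and SIX3 under the bacterial controls. The 5 trophoblast markers gave 612 to 634 against 64.8 to 70.1, through KRT7 and TFAP2A, while CGA, GCM1 and ELF5 were under the bacterial controls on every array.

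NR2F6, another COUP-TF, was at 1980 to 2020 against 1843 to 1987 in hESC, with a change of 0.14 (adjusted p = 0.167). NR2C1 (TR2) was at 509 to 629 against 506 to 567, and NR2C2 (TR4) at 451 to 545 against 444 to 551, and neither was called. NR2E3, a photoreceptor regulator, fell by 0.34 (SE 0.08, adjusted p = 0.00745), at 9.39 to 10.7 against 17.6 to 20.2 in hESC, levels under the bacterial controls. NR2E1 (TLX), a factor of neural stem cells, was listed at 1, the value of 2.02% to 2.30% of all probe sets on each array, on every progenitor array, and at 1 to 1.59 in hESC. HNF4G, an orphan receptor of gut epithelium, was at 7.87 to 16.2 against 12.1 to 15.5, with a change of -0.03.

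Of the oestrogen receptors ESR2 fell and ESR1 was not called. ESR2 (oestrogen receptor beta) had intensities of 14.4, 28.3 and 15.1 in the progenitors and of 58.8, 77.9 and 52.5 in hESC. The groups were apart, and ESR2 fell by 1.09 (SE 0.18, limma adjusted p = 0.00165), from 6.25 ± 0.20 to 5.16 ± 0.31. Another ESR2 probe set rose by 0.46 (adjusted p = 0.00396 over the probe sets), at 7.76 to 10.04 against 2.24 to 3.14 in hESC, and the mean of the 6 ESR2 probe sets changed by -0.05 (adjusted p = 0.649). ESR1 was at 46.9 to 56.0 against 42.8 to 70.7, and none of its 9 probe sets was called.

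The oestrogen-related receptors, which act without oestrogen on genes of mitochondrial metabolism, were unequal. ESRRG had intensities of 108, 122 and 122 in the progenitors and of 41.6, 38.8 and 51.8 in hESC. All progenitor arrays were above all hESC arrays, and ESRRG rose by 1.21 (SE 0.12, limma adjusted p = 0.000163), from 5.85 ± 0.21 to 7.06 ± 0.10. ESRRA fell by 0.32 (SE 0.10, adjusted p = 0.0269), with intensities of 281 to 312 against 332 to 405. That call was lost without hESC array 1 (-0.25, adjusted p = 0.0846), progenitor array 2 (-0.30, 0.0957) or progenitor array 3 (-0.32, 0.0853), and under scaling on the hybridization controls ESRRA was at 0.21. ESRRB, a pluripotency factor of mouse embryonic stem cells, was dim in both groups, at 1.03 to 6.92 against 6.87 to 7.37.

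Among the other steroid receptors only NR3C2 was called. NR3C2, the mineralocorticoid receptor, had intensities of 6.32, 6.71 and 6.40 in the progenitors and of 13.7, 16.3 and 24.7 in hESC. The groups did not overlap, both lay under the bacterial controls, and NR3C2 fell by 0.54 (SE 0.13, limma adjusted p = 0.0124), from 5.05 ± 0.26 to 4.51 ± 0.01. NR3C1, the glucocorticoid receptor, was at 242 to 322 against 180 to 263, with a change of 0.32 (adjusted p = 0.139) in its brightest probe set. Another NR3C1 probe set rose by 0.96, at 180 to 219 against 82.7 to 114 in hESC, and a dim one fell by 0.76, at 6.64 to 9.13 against 18.6 to 35.1 in hESC. PGR, the progesterone receptor, was at 15.7 to 23.7 against 21.6 to 43.2.

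The NR4A receptors, immediate-early genes that respond to stress and growth signals, were not called. NR4A1 was at 101 to 130 against 65.9 to 113, NR4A2 at 26.4 to 47.8 against 23.8 to 37.5 and NR4A3 at 8.87 to 19.9 against 17.6 to 30.3. Their changes were 0.35, 0.32 and -0.42, with adjusted p of 0.16, 0.156 and 0.0813 by limma. The groups overlapped in all 3.

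Both NR5A receptors fell. NR5A1 (SF1), the regulator of steroid-making organs, had intensities of 13.2, 14.6 and 14.2 in the progenitors and of 27.7, 45.3 and 24.9 in hESC. hESC array 2 was the highest, the groups did not overlap, and NR5A1 fell by 0.59 (SE 0.14, limma adjusted p = 0.0106), from 5.53 ± 0.28 to 4.94 ± 0.04, with both group means under the bacterial controls. NR5A2 (LRH1) had intensities of 40.6, 46.2 and 49.7 in the progenitors and of 78.8, 61.4 and 76.5 in hESC. Its brightest probe set fell by 0.43 (SE 0.12, adjusted p = 0.0243), and 2 dimmer ones fell by 1.00 and 1.30. The call on the brightest was lost without progenitor array 1 or 2 or hESC array 1 or 3 (-0.44 to -0.36, adjusted p = 0.0622 to 0.0855). NR6A1 (GCNF) was at 798 to 983 against 807 to 881, with a change of 0.09 (adjusted p = 0.472). NR0B2 (SHP), a receptor without a DNA-binding domain that represses others, was at 34.2 to 45.9 against 32.8 to 60.8.

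**Figure D2:**
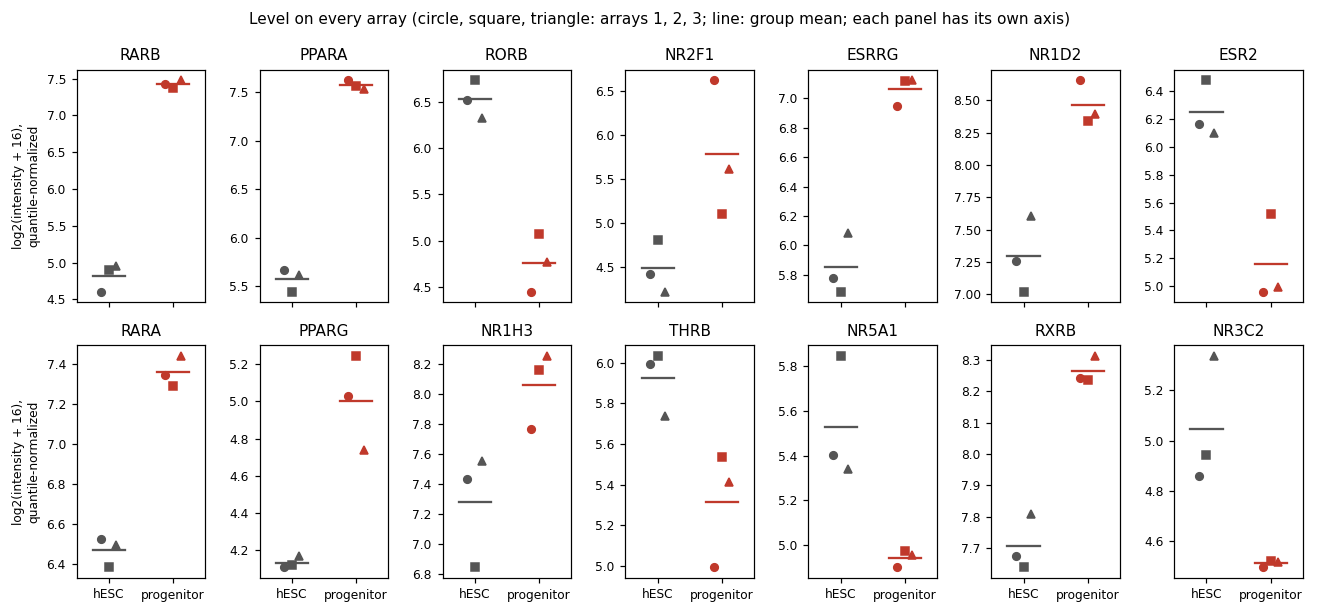
Quantile-normalized log2(intensity + 16) of the 14 receptors with the largest called changes (vertical axis, each panel on its own scale) on the 3 hESC and 3 progenitor arrays, with a line at each group mean. The groups do not overlap in any panel, and NR2F1 on progenitor array 1 stands above arrays 2 and 3.

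Many receptors were measured more than once, and their probe sets did not always move together. Over the 127 receptor probe sets, 28 rose (22.0%, beside 24.2% of all probe sets) and 16 fell (12.6%, beside 19.2%), so that 34.6% were called, beside 43.4% of all. Of the 31 receptors with several probe sets, ESR2 and NR3C1 had called ones in both directions. In RXRA, NR1D2, ESRRA and ESRRG every probe set was called the same way. Those of RXRA and ESRRG all carry the mark for sequences that may match several transcripts. PPARA had 9 probe sets, of which 4 rose, by 0.72 to 2.00, and none fell, and RARB had 5, of which 2 rose. In 8 receptors the brightest probe set was not called but another was. Among these, RARG (0.42), PPARD (0.40), NR2F6 (0.52) and NR6A1 (0.65) had a higher one, and RORA (-0.56), NR2C1 (-0.40) and NR4A2 (-0.54) a lower one, while NR3C1 had both.

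**Figure D3:**
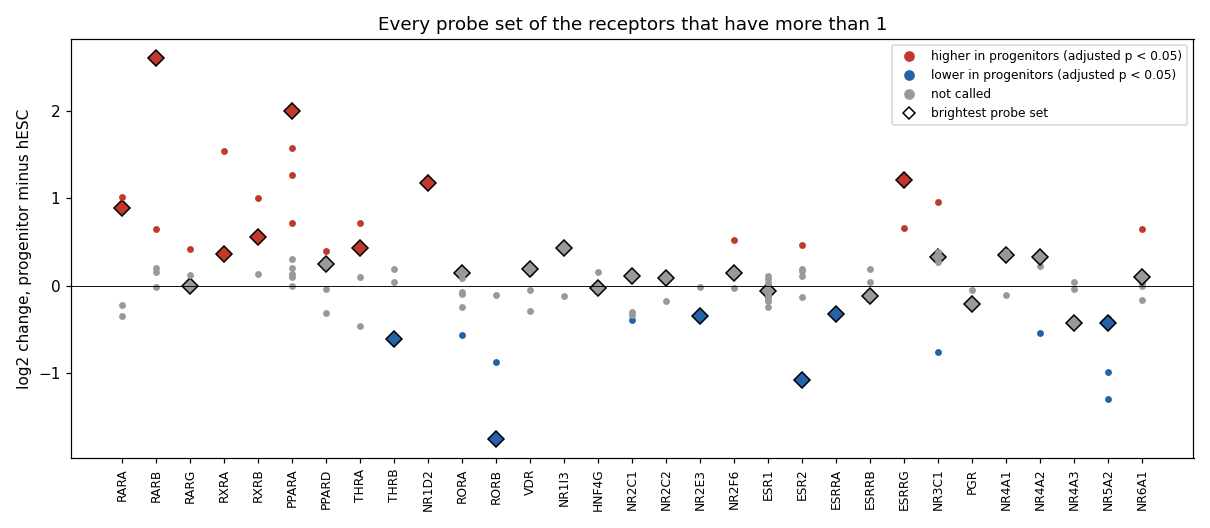
Log2 change (progenitor minus hESC, vertical axis) of every probe set of the 31 receptors that have more than 1, with a diamond for the brightest and colour for the call. PPARA and NR5A2 have several called probe sets on one side of 0, while ESR2 and NR3C1 have called ones on both sides.

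How the arrays are scaled moved the balance of directions. The hybridization controls, which are spiked in before hybridization, were brighter in hESC, at a mean log2 of 9.99 to 10.3 against 9.52 to 9.74. Scaling on them moved the median of all genes to 0.32 and took the higher genes from 55.8% to 81.9% of all called genes. Of the receptors 24 then rose and 3 fell. All 12 that rose in the quantile-normalized data were still called higher, and of the 8 that fell RORB, ESR2 and NR5A1 were still called lower. In 9 of the 20 called receptors (RARB, RXRA, RXRB, PPARA, PPARG, NR1D2, RORB, ESRRG and NR5A1) the call held at an adjusted p under 0.05 in each alternative in which the gene was tested, 16 to 19 in number. RXRA, PPARG and ESRRG have only probe sets that may match several transcripts, so they were not tested without such probe sets. PPARG and NR5A1, with both group means under the bacterial controls, were removed by both filters on dim genes (30% and 50%). Their calls were thus not tested by these filters. RARB, PPARA, RORB and ESRRG were removed by the 50% filter and not tested by it.

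Genes that act with nuclear receptors were counted in 6 lists, beside 47.9% of all genes called. Of 21 measured coregulators, 6 rose and 7 fell, with a median change of -0.07. NCOA6, a coactivator, rose by 2.02 (SE 0.16), with intensities of 466 to 582 against 96.9 to 142. NRIP1, a corepressor that binds receptors holding their ligand, rose by 2.00 (SE 0.09), at 717 to 830 against 169 to 188 in hESC. NCOA1, a coactivator of steroid receptors, rose by 1.39 (SE 0.15). PPARGC1B, which drives mitochondrial genes with the PPARs and oestrogen-related receptors, fell by 1.32 (SE 0.17), at 70.1 to 116 against 206 to 263 in hESC.

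Retinoid handling had the most one-sided counts. Of 10 measured genes 7 rose and 1 fell, and the median change was 0.88. CRABP2, which carries retinoic acid to the receptors, had intensities of 3694, 3487 and 3805 in the progenitors and of 506, 513 and 455 in hESC, a rise of 2.89 (SE 0.08, limma adjusted p = 4.27e-07). STRA6, the cell surface receptor for vitamin A uptake, rose by 1.89 (SE 0.13), at 336 to 446 against 82.7 to 96.3 in hESC. DHRS3, which turns retinaldehyde back into retinol, fell by 2.64 (SE 0.11), at 45.8 to 51.6 against 345 to 450 in hESC. The others that rose, by 0.59 to 1.62, were ALDH1A2 and ALDH1A3, which make retinoic acid, the retinol dehydrogenase RDH10, the carrier FABP5 and CYP26A1. ALDH1A2 was dim, at 66.8, 37.8 and 37.7 against 3.05 to 7.35 in hESC. Only progenitor array 1 was above the bacterial control limit, which is that of hESC array 1. Against the progenitor arrays' own highest controls, at 26.15 to 29.44, ALDH1A2 was above on every progenitor array. ALDH1A1 and CYP26B1 were not called.

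Targets of the lipid-sensing receptors did not move as a block. Of 18 measured, 3 rose and 7 fell, with a median change of -0.15. SREBF1, an LXR target that switches on fatty acid synthesis, fell by 1.55 (SE 0.08), at 356 to 371 against 1071 to 1176 in hESC. FABP3, a fatty acid carrier, fell by 1.49 (SE 0.09), and CPT1A, which admits fatty acids to mitochondria and is a known PPARA target, by 1.46 (SE 0.14). PLIN2, a coat protein of lipid droplets, rose by 1.27 (SE 0.12), at 1611 to 2069 against 722 to 822 in hESC. The mean of the PLIN2 probe sets changed by 0.26 (adjusted p = 0.161).

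Of 13 steroid receptor chaperones and targets, 2 rose, 2 fell and 9 were not called. HSD11B2, which inactivates cortisol, fell by 2.73 (SE 0.12), at 3.30 to 6.09 against 107 to 134 in hESC. DUSP1, a phosphatase induced by glucocorticoids and by stress, rose by 1.46 (SE 0.20), and TSC22D3, another glucocorticoid target, by 0.93 (SE 0.15), though without probe sets that may match several transcripts it changed by 0.13 (adjusted p = 0.488).

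Of 14 clock genes, 3 rose and 2 fell. BHLHE40, a repressor that binds E-boxes, rose by 3.16 (SE 0.08), at 463 to 503 against 37.9 to 44.5 in hESC. TEF, a transcription factor of clock output, rose by 1.07 (SE 0.26), though the mean of its probe sets changed by 0.20 (adjusted p = 0.177). BMAL1, the activator that the REV-ERBs repress, fell by 0.77 (SE 0.18, limma adjusted p = 0.00886), at 70.6 to 89.0 against 130 to 205 in hESC, and was not called under scaling on the hybridization controls (-0.33, adjusted p = 0.127).

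Of 8 genes that handle thyroid hormone or vitamin D, 3 rose and 1 fell. CYP27A1, a sterol hydroxylase of bile acid and vitamin D synthesis, rose by 3.48 (SE 0.14), at 262 to 305 against 7.10 to 15.2 in hESC. DIO3, the deiodinase that inactivates thyroid hormone, rose by 1.96 (SE 0.11), at 178 to 230 against 40.5 to 44.1 in hESC. CRYM, a protein that binds thyroid hormone in the cytosol, fell by 1.76 (SE 0.29), with progenitor intensities of 203, 85.0 and 75.7 against 390 to 432 in hESC. Its level on progenitor array 1 was above those on arrays 2 and 3.

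**Figure D4:**
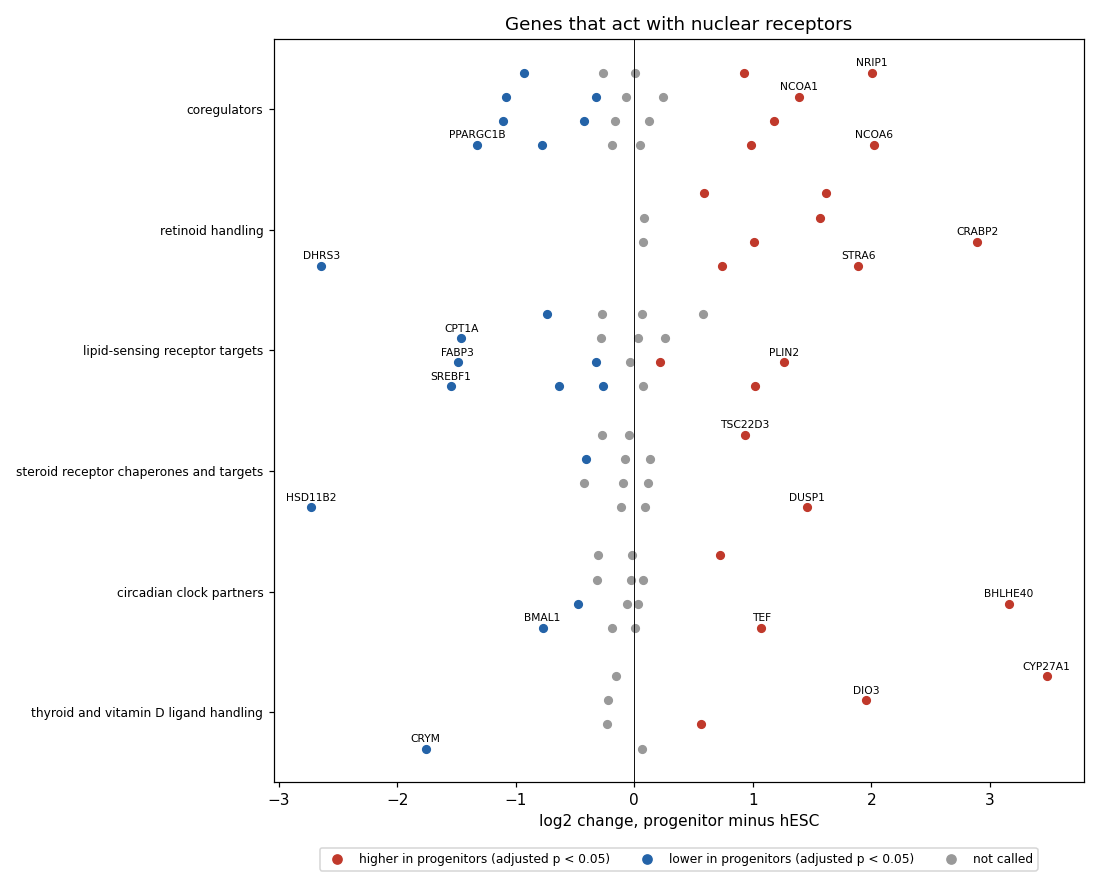
Log2 change (progenitor minus hESC, horizontal axis) of every measured gene in the 6 lists of genes that act with nuclear receptors, 1 row per list with points spread vertically for legibility and colour for the call. Retinoid handling has 7 points called higher and DHRS3 alone called lower, while the lipid-sensing receptor targets have 7 called lower and 3 higher.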

How the data were processed

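Biotinylated cRNA of 3 progenitor and 3 hESC samples was hybridized to 1-colour arrays, per the labels. The deposited table, the authors' own values, gives each probe set's intensity, and its range shows that the scale is linear. The way probes were summarised, background-corrected and scaled is not given in the sources used here. Among the 54675 probe sets, 41091 had 1 gene symbol, 1801 several and 11777 none, and 62 were array controls, which were left out. Symbols were updated through RefSeq gene identifiers.

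The deposited intensities were converted to log2(intensity + 16). Array medians spanned 0.15, above the limit of 0.1, so arrays were quantile-normalized. Each gene was represented by its brightest 1-gene probe set. Tests used limma 3.58.1 (R 4.3.3), two-sided, with Benjamini-Hochberg adjustment over all genes or, separately, over all probe sets. The procedure was tested on simulated data. With 3 arrays per group, precision is limited by their number. Same-numbered arrays were not treated as pairs in these tests.

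Alternatives were pseudocounts of 1 and 64, leaving out the dimmest 30% or 50% of genes, other normalizations, other choices of probe set, other variance models, a replicate block, leaving out each array, averaging progenitor arrays 2 and 3, and a threshold of 0.01. Every measured member is named. Full values are given for the 14 with the largest called changes whose groups did not overlap, both values where probe sets disagree, and per list the 3 largest called changes and the largest in the opposite direction. ALDH1A2, ALDH1A3, RDH10, FABP5, ALDH1A1, CYP26A1, CYP26B1 and single probe sets beyond this rule were named after their values were seen. The members and lists were chosen with earlier results of these data known. Figures were drawn with matplotlib 3.10.9.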

Additional observations from a re-analysis of the deposited data

How the results depend on the processing

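Counts of called genes that moved by over 1.5 times were these. Without the dimmest 30% of genes 27 receptors were left, of which 5 fell, and 8927 of the genes left were called. Without the dimmest 50%, 14 receptors were left, of which 6 rose and 1 fell, and 6858 of the genes left were called. There 13 receptor probe sets rose and 5 fell, and 2 thyroid and vitamin D genes were called. Fewer genes and probe sets were tested in both. Scaling on the hybridization controls gave 24 receptors higher and 3 lower, 53 receptor probe sets higher and 6 lower, and 7 steroid-list genes, which array weights gave too. With the mean of each gene's probe sets, 5 receptors fell and 2 steroid-list and 3 clock genes were called. With only probe sets not marked as matching several transcripts, 7 receptors rose, 4 coregulators, 6 lipid targets, 2 steroid-list genes and 3 clock genes were called, 13 receptor probe sets rose and 11096 of all probe sets were called, fewer being tested. At an adjusted p under 0.01, 3 receptors fell, 6 lipid targets and 3 clock genes were called, and 7 receptor probe sets fell. Leaving out 1 array gave 5 (without hESC array 1) to 8 receptors lower and 6 (without progenitor array 3) to 9 lipid targets. Of the called receptors, RARA reversed to -0.35 with only the unmarked probe sets, and ESRRA to 0.21 under scaling on the hybridization controls. The RARA value came from a probe set below the bacterial controls on every array. The other reversals were of receptors that were not called. With mean probe sets they were RARG (0.18), RORA (-0.061), VDR (-0.0030), HNF4G (0.066), NR2C1 (-0.23), NR2C2 (-0.043), ESRRB (0.035) and NR4A2 (-0.00051). With median centring they were RARG (0.12), HNF4G (0.012) and NR2E1 (0.077), and RARG (0.0096) without normalization. On the hybridization controls they were RARG (0.49), HNF4G (0.14), NR2E1 (0.0056), ESR1 (0.25), PGR (0.0053) and NR0B2 (0.22). With only the unmarked probe sets they were NR3C1 (-0.76) and NR4A1 (-0.10), and with array weights NR0B2 (0.027). Leaving out 1 array gave -0.11 to 0.16 for RARG, -0.14 to 0.076 for HNF4G, -0.21 to 0.045 for ESR1, -0.20 to 0.025 for ESRRB and -0.19 to 0.10 for NR0B2. The causes were not tested.

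Same-numbered arrays did not deviate together (correlations across genes of -0.02, 0.03 and -0.04). Such correlations cannot show whether same-numbered samples shared a culture or a run. With the replicate number as a block, 11 receptors rose, 9 fell and 8880 genes were called, against 9463 without it. Signal over background limits the dim receptors: 12 of the 39 had both group means under the highest bacterial control intensity (39.6), and 2 of these rose and 3 fell.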

Other observations

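Some of the measured receptors lie next to or near each other in the genome, by the gene order of RefSeq. Receptors not analysed here, such as NR1D1, were not looked for and count below as any other gene. NR1D2, THRB and RARB follow each other on chromosome 3 with 0 protein-coding genes between neighbours, and their changes were 1.17, -0.61 and 2.61. NR5A1 and NR6A1 are neighbours on chromosome 9, also with 0 between them, and changed by -0.59 (called) and 0.09 (not called). THRA and RARA on chromosome 17 have 6 protein-coding genes between them and changed by 0.44 and 0.89, both called. The cyclic AMP response element TGACGTCA, searched with the other motifs on both strands, was in 1.85% of all promoter windows and in 2 receptor windows, those of NR2E1 and NR6A1, neither of which was called.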
